A study of Rattus norvegicus with 2 samples.

Results

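The miR-183 cluster comprises miR-183, miR-96 and miR-182, and 2 of its mature miRNAs, rno-miR-182 and rno-miR-183-5p, were counted in hippocampal small RNA of rats after status epilepticus (SE) and of control rats. The members were selected by name, as every listed strand of miR-182, miR-183 or miR-96, and the cluster itself was chosen from these counts, because rno-miR-182 had 0 counts and rno-miR-183-5p had 1 count in the experimental group. The difference between the groups is therefore a description, and no test was made of it. The members are 2 of the 390 miRNAs in the table and 2 of its 328 known rat miRNAs.

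The experimental group consisted of Wistar rats aged 5 months that underwent stimulation of the lateral nucleus in the right amygdala until SE. Stimulation was given for 20 min and, per the study, resumed in rats that did not yet meet its criteria of SE. The control group consisted of Wistar rats of the same age that were sham-stimulated and, per the methods of the study, carried the same electrodes. The study took the left hippocampus 24 hours after SE, following perfusion with saline, and pooled the RNA of each group into 1 library. It gives 6 rats per group, without the number in each pool, so that no spread between animals could be measured and the difference has no replicate check.

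A miRNA is cut from a hairpin precursor, which can release a mature strand from its 5′ side (5p) and from its 3′ side (3p). The mature strand guides the silencing of messenger RNAs, mainly through pairing of its seed, bases 2 to 8. The 3 hairpins of the miR-183 cluster lie close together and are known to be transcribed as 1 precursor. The cluster is known for its high level in sensory cells, namely photoreceptors, hair cells of the inner ear and olfactory neurons, and changes in the seed of miR-96 cause hearing loss in man and mouse. MiR-182 is known to repress Foxo1, a transcription factor of metabolism and cell survival.

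The mature strands are shown because the seed defines what each member can pair with. They were taken from RefSeq (GRCr8 build), on the minus strand of chromosome 4, and are printed 5′ to 3′ with the seed in capitals. Only the first pair is in the table of counts. The remaining 3 strands of the cluster, miR-183-3p and both arms of miR-96, were not analysed here.
rno-miR-182 (chr4:59752249-59752273): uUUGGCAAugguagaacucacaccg
rno-miR-183-5p (chr4:59756106-59756127): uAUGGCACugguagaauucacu
rno-miR-96-5p (chr4:59755901-59755923): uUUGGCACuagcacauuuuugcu
rno-miR-96-3p (chr4:59755860-59755881): cAAUCAUGugcagugccaauau
rno-miR-183-3p (chr4:59756067-59756087): uGAAUUACcgaagggccauaa

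The members counted are close relatives in sequence. Aligned from the 5′ end without gaps, miR-183-5p and miR-182 were identical at 18 of 22 bases (81.8%). Their differences, counted from 1 at the 5′ end with the base of miR-183-5p first, were A2U, C8A, U17C and U22A. The first pair of these lies in the seed, so that 5 of the 7 seed bases were shared. MiR-96-5p shared 6 of the 7 seed bases with miR-182 and also 6 of 7 with miR-183-5p. Over the whole strand it was less alike, with 12 of 23 bases identical to miR-182 and 13 of 22 identical to miR-183-5p.

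The hairpin entries show where the counted strands lie, with the mature strands in capitals (RefSeq, GRCr8, minus strand). The Mir182 entry has only 62 bases, with the mature strand at bases 35 to 59. It ends just after that strand, so it was not used to assign miR-182 to the 5′ or 3′ side.
Mir183 hairpin (chr4:59756044-59756153): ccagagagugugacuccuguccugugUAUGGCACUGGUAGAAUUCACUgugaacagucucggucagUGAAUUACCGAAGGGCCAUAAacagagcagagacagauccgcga
Mir96 hairpin (chr4:59755841-59755946): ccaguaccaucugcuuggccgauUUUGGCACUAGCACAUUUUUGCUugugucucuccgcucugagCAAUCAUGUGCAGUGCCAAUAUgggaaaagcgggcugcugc
Mir182 hairpin (chr4:59752246-59752307): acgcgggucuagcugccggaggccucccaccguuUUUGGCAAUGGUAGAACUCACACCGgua

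The 3 hairpins span 3908 bases. Mir183 and Mir96 are separated by 97 bases, and Mir96 and Mir182 by 3533 bases. RefSeq annotates 2 mature strands on each of Mir183 and Mir96 and 1 on Mir182, which makes 5 in all. Another miRNA gene, Mir3553, lies on the opposite strand over Mir183. The reverse complement of its mature strand contains all 22 bases of miR-183-5p. MiR-3553 was not analysed here.

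**Figure D1:**
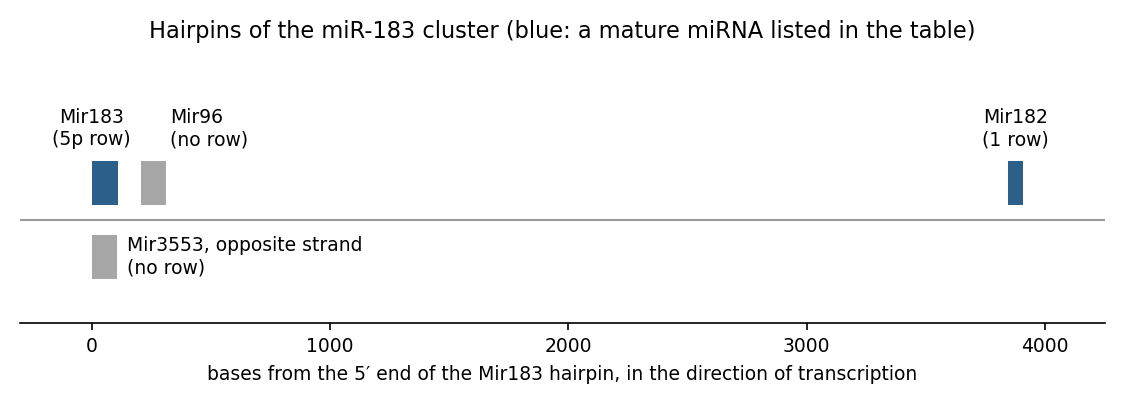
Positions of the 3 hairpins of the cluster and of Mir3553 on the opposite strand, in bases from the 5′ end of the Mir183 hairpin (GRCr8). Blue boxes are hairpins with a mature miRNA listed in the table and grey boxes those without one; Mir183 and Mir96 lie 97 bases apart and Mir182 a further 3533 bases downstream.

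The deposited values were whole numbers of reads per miRNA. In the experimental library they summed to 5678090, or 78.4% of its clean reads, and in the control library to 6703056, or 76.7%. Levels are given here as counts per 1000000 of these summed counts (CPM), so that 1 count was worth 0.176 CPM in the experimental group and 0.149 CPM in the control group. The median known miRNA had 132 counts in the control group against 128 after SE. The lowest larger count of any row was 8. Why other strands have no row was not tested, so the absence of a row gives no count. The labelled tissue was checked with a list of neuronal miRNAs, of which miR-9 had no listed strand. MiR-124-3p, enriched in neurons, had 8873 CPM in the experimental group and 4252 CPM in the control group, and miR-138-5p, another brain-enriched miRNA, had 1216 and 901 CPM. The most abundant strand of the neuron list, miR-128-3p, was lower in the experimental group, at 37763 against 52854 CPM, and the list summed to 48034 against 58158 CPM. Over its 9 strands, 6 were higher and 3 lower in the experimental group, with a median log2 ratio of 0.15.

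Both members were scarce in the control library and had almost no reads in the experimental library. MiR-182 had 32 counts in the control group (95% exact Poisson interval 21.9 to 45.2) and 0 counts in the experimental group (0 to 3.69). As a level this was 4.77 CPM in the control group (interval 3.27 to 6.74). In the experimental group the upper limit was 0.650 CPM, which is below the interval of the control group. These intervals and limits cover counting error only, since reads amplified by PCR without molecular identifiers are not independent molecules and no animal was sequenced on its own.

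MiR-183-5p had 9 counts in the control group (exact Poisson interval 4.12 to 17.1) and 1 count in the experimental group (0.0253 to 5.57). Its level was 1.34 CPM in the control group (interval 0.614 to 2.55) and 0.176 CPM in the experimental group (interval 0.00446 to 0.981). Here the intervals of the libraries overlapped. In the control library miR-182 thus gave 78.0% of the 41 reads of the members (exact Clopper-Pearson interval 62.4 to 89.4) and miR-183-5p gave 22.0% (10.6 to 37.6). The 1 read left in the experimental library belonged to miR-183-5p, and a single read sets no order between the members there.

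A count of 0 has no ratio, and it was therefore set to the floor of 3 counts. Against this floor, and with the control count taken as exact, miR-182 was at least 9.04-fold lower in the experimental group, a log2 ratio of -3.18. With the counting error of both libraries it was at least 6.93-fold lower, a log2 ratio below -2.79 (exact Clopper-Pearson). For miR-183-5p the counts of 1 and 9 gave a 7.62-fold lower level, a log2 ratio of -2.93 with an interval from -8.38 to -0.08. With its 1 count also set to the floor of 3, the log2 ratio was -1.35, so that the value -2.93 and that of miR-182 are not on the same footing. The interval of miR-183-5p thus reached to just under a ratio of 1 and contained the whole range from a minute difference to a very large one. It also contained the bound of miR-182, so that the differences of the members could not be told apart at this depth. Summed, the members had 41 counts in the control group against 1 after SE, a 34.7-fold lower level (interval 5.89 to 1405) or a log2 ratio of -5.12. This value rests on 1 read, and with that read set to the floor of 3 counts the log2 ratio was -3.53.

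The depth needed to see the members can be read from the control library. At the control levels and the experimental depth, 27.1 counts of miR-182 and 7.62 counts of miR-183-5p would be expected, against the 0 and 1 observed. No row had a larger count under 8, and the members reached 8 only in the control library. A low experimental count could thus be listed only beside a higher control count. The cluster was also chosen for its experimental counts, so this contrast is a description only. Whether the cluster was lost as a whole could not be read from these values, because miR-96 and the 3p arm of miR-183 were not analysed here. In the experimental group the level of miR-182 is known only as an upper limit. In pooled tissue RNA, fewer cells carrying the cluster and less of it per cell cannot be told apart. The study describes the removal of sequences read once, yet a count of 1 stands in the table for miR-183-5p, and the effect of this step on a count of 0 was not tested.

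Of the 285 miRNAs with at least 30 counts in one of the libraries, 3 were more than 4-fold lower in the experimental group (log2 ratio below -2 with counts under 3 set to 3), which is 1.05%. Of the 2 members only miR-182 reached 30 counts, in the control library alone, and it was among the 3. The other two were predicted miRNAs with 0 counts in the experimental group, novel_mir_71 with 440 counts in the control group and novel_mir_87 with 81. MiR-183-5p, with at most 9 counts, was below the minimum. The minimum of 30 counts and the 4-fold limit are those of the study, used here without its P. Since the cluster was chosen from this contrast, nothing is read from its share. The median log2 ratio of the 285 miRNAs was 0.07.

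Other known miRNAs of the same level kept reads in the experimental library. The known miRNAs were ordered by their control count, in which miR-182 ranked 246 and miR-183-5p 308 of 328. Just above miR-182 stood miR-30b-3p, miR-511-3p and miR-582-5p, each with 33 counts in the control group and with 53, 16 and 22 after SE. Just below it, miR-28-5p had 31 counts in the control group and 27 in the experimental group, miR-350 had 31 and 37, and miR-34a-5p, a target of the transcription factor p53, had 29 and 33. All 8 other known miRNAs with 31 to 33 counts in the control group had 16 to 53 counts after SE, with a median of 30. None of them came near the 0 of miR-182. The cluster was chosen for that 0, so this contrast is a description only.

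Around miR-183-5p, also chosen for its experimental count, the counts were too low for a clear separation. The strands just above it were miR-339-5p, with 10 counts in the control group against 12 after SE, miR-374-3p, with 10 against 6, and miR-490-3p, with 10 against 11. Those just below it all had 9 counts in the control group, and the experimental counts were 2 for miR-133b-3p, known from muscle, 7 for miR-190b-5p and 15 for miR-19b-3p of the miR-17-92 cluster. The 6 other known miRNAs with 9 counts in the control group had from 2 to 15 counts after SE, with a median of 7. MiR-183-5p lay below all 6, but only 1 count below miR-133b-3p.

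**Figure D2:**
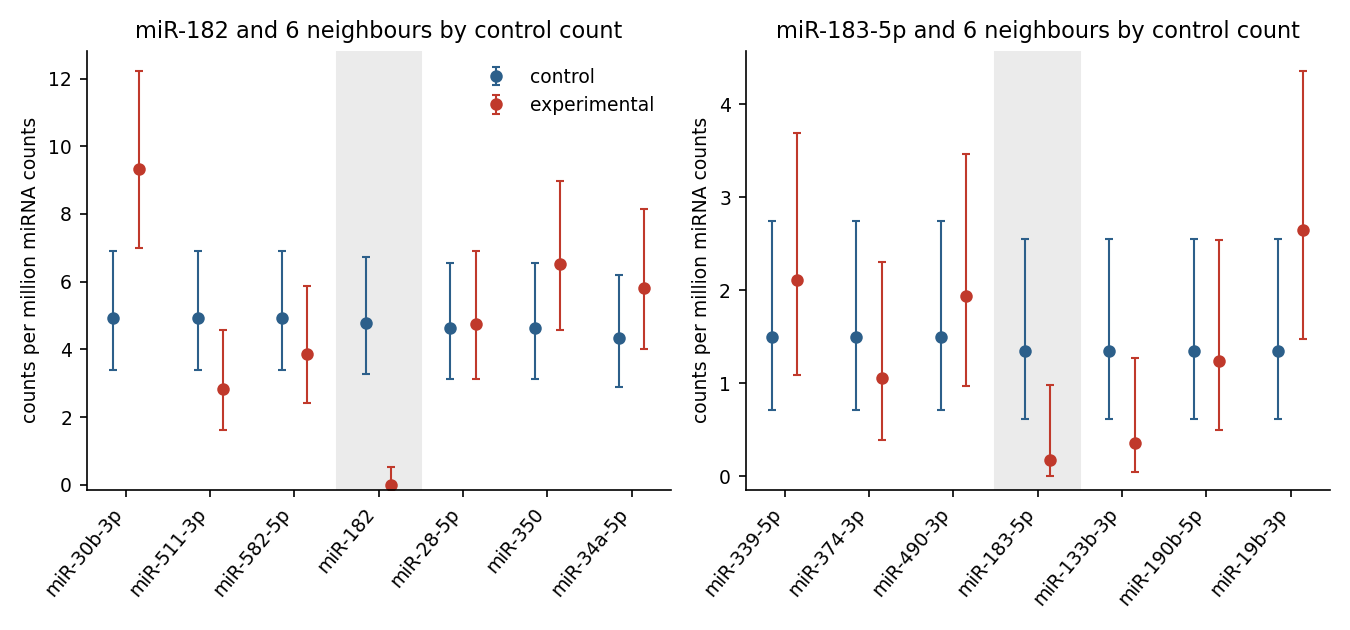
Level in CPM, with 95% exact Poisson intervals, of miR-182 (left) and miR-183-5p (right), shaded, and of the 3 known miRNAs above and below each in the order of control counts. The experimental point of miR-182 is at 0, with its bar drawn to the floor of 3 counts (0.528 CPM), short of its interval limit of 0.650 CPM. Its neighbours lie between 2.82 and 9.33 CPM in the experimental group. For miR-183-5p the intervals of the libraries overlap.

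The members were the known miRNAs with the fewest reads after SE, a place that follows from choosing them for low counts. The next were miR-133b-3p with 2 counts, miR-100-3p with 3 counts and miR-328a-5p with 4 counts in the experimental group. These had 9, 11 and 13 counts in the control group, fewer than the 32 of miR-182. Their log2 ratios were -1.93 (exact Clopper-Pearson interval -5.18 to 0.34), -1.64 (-4.12 to 0.29) and -1.46 (-3.54 to 0.23), intervals that all contained 0. Among known miRNAs with 5 counts or fewer in one library and at least 20 in the other there was 1 besides miR-182, and it went the other way. This was miR-874-3p, with 4 counts in the control group against 31 after SE.

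Only at a distance did other known miRNAs with at least 30 counts follow miR-182 in the order of log2 ratios. By this measure of likeness, over the 2 libraries, the nearest was miR-99b-3p, at 8.63 CPM in the experimental group and 26.4 CPM in the control group, with a log2 ratio of -1.61 (interval -2.10 to -1.15). It was followed by miR-125a-3p (-1.20), miR-3594-5p (-1.18), miR-488-3p (-0.86) and miR-129-1-3p (-0.83). These kept between 34 and 515 counts after SE, so that in reads none resembled the 0 of miR-182, for which the cluster was chosen. The study selected miR-99b-3p as its lowered miRNA and reported a decrease by qRT-PCR. With the counts used here, its log2 ratio of -1.61 did not pass the limit of -2. MiR-182 was not among the miRNAs that the study selected.

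**Figure D3:**
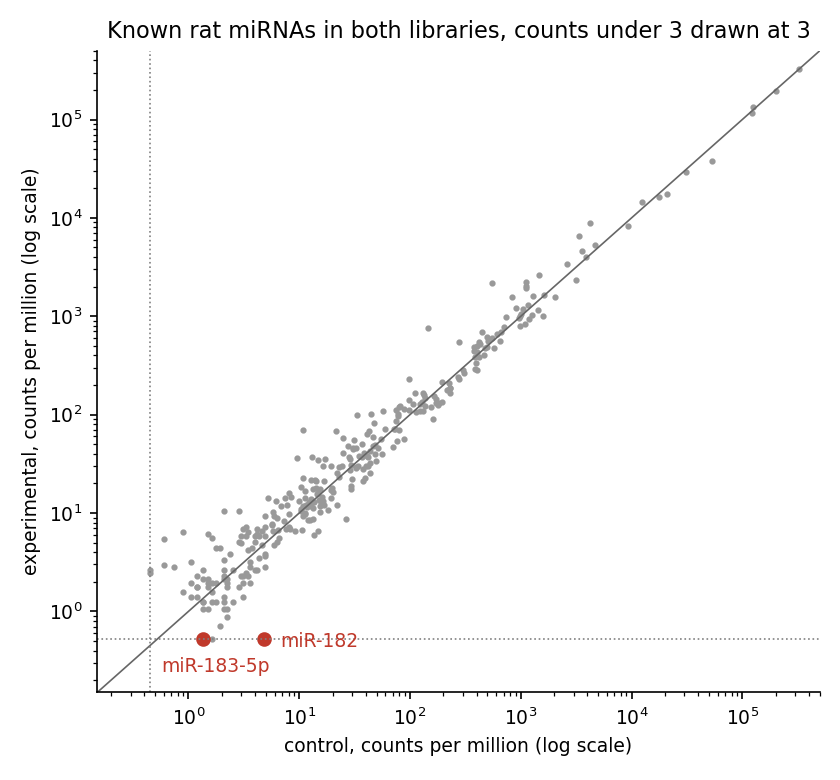
Level of each of the 328 known rat miRNAs in the control group (x axis) and the experimental group (y axis), in CPM on log scales, with counts under 3 drawn at 3 (dotted lines) and the line of equal levels. The members lie on the floor of the experimental group, miR-182 at 4.77 CPM in the control group; miR-133b-3p, with 2 counts, lies under the point of miR-183-5p.

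The related seeds that were found did not share the pattern. No other mature strand in the RefSeq table had the seed of either member, and the closest to miR-182 was miR-96-5p, with 1 base of difference. For miR-183-5p, 5 listed miRNAs had a seed with 1 base of difference, among the 297 of 328 known miRNAs matched by name to RefSeq. They were miR-25-3p, miR-92a-3p and miR-92b-3p of a family known from cell proliferation, with miR-425-5p and miR-652-3p. MiR-25-3p was at 484 CPM after SE and 495 CPM in the control group, and its log2 ratio was -0.03 (interval -0.11 to 0.04). MiR-92b-3p was at 955 and 963 CPM, a log2 ratio of -0.01 (-0.06 to 0.04). MiR-92a-3p, at 54.6 and 31.2 CPM, was higher after SE, with a log2 ratio of 0.81 (0.55 to 1.07). MiR-425-5p and miR-652-3p had 28 and 23 counts in the control group against 39 and 24 after SE, with log2 ratios of 0.72 (-0.02 to 1.47) and 0.30 (-0.59 to 1.19). None of the 5 had a ratio near those of the members.

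The cluster is known from sensory and epithelial cells, and lists of miRNAs of other cell types are given beside it as values only. The epithelial miR-200 family (miR-200a, miR-200b, miR-200c, miR-141 and miR-429), which is abundant in olfactory epithelium, had 0 listed strands and was not analysed here. MiR-204, known from the choroid plexus and the retinal pigment epithelium, was not lower in the experimental group. Its 5p strand was at 166 CPM in the experimental group and 132 CPM in the control group, and its 3p strand at 130 and 124 CPM. Their log2 ratios were 0.33 (interval 0.19 to 0.46) and 0.07 (-0.08 to 0.21), and the list summed to 296 CPM and 256 CPM. MiR-211, also on this list, had no listed strand.

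Neuroendocrine miRNAs, known from pituitary and islet cells, were not lower as a list. MiR-375-3p had 22.9 CPM in the experimental group and 10.9 CPM in the control group, with 1.07 as its log2 ratio (interval 0.65 to 1.51). MiR-7a-5p was at 124 and 81.0 CPM and miR-7b at 30.1 and 19.5 CPM, both higher in the experimental group, while miR-7a-1-3p, at 14.1 and 19.4 CPM, and miR-7a-2-3p, at 9.69 and 11.3 CPM, were lower. The 5 strands had a median log2 ratio of 0.61, against 0.07 over all known miRNAs, and summed to 201 and 142 CPM. None of the listed red blood cell strands had a log2 ratio below 0. MiR-451-5p, an erythroid miRNA, had 34.5 CPM in the experimental group and 14.9 CPM in the control group. The 3 listed strands of the list summed to 39.5 and 17.8 CPM, with a median log2 ratio of 1.21, and miR-486 had no listed strand. The part of other cell types in the low counts of the members was not tested, and the miR-200 family had no listed strand.

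**Figure D4:**
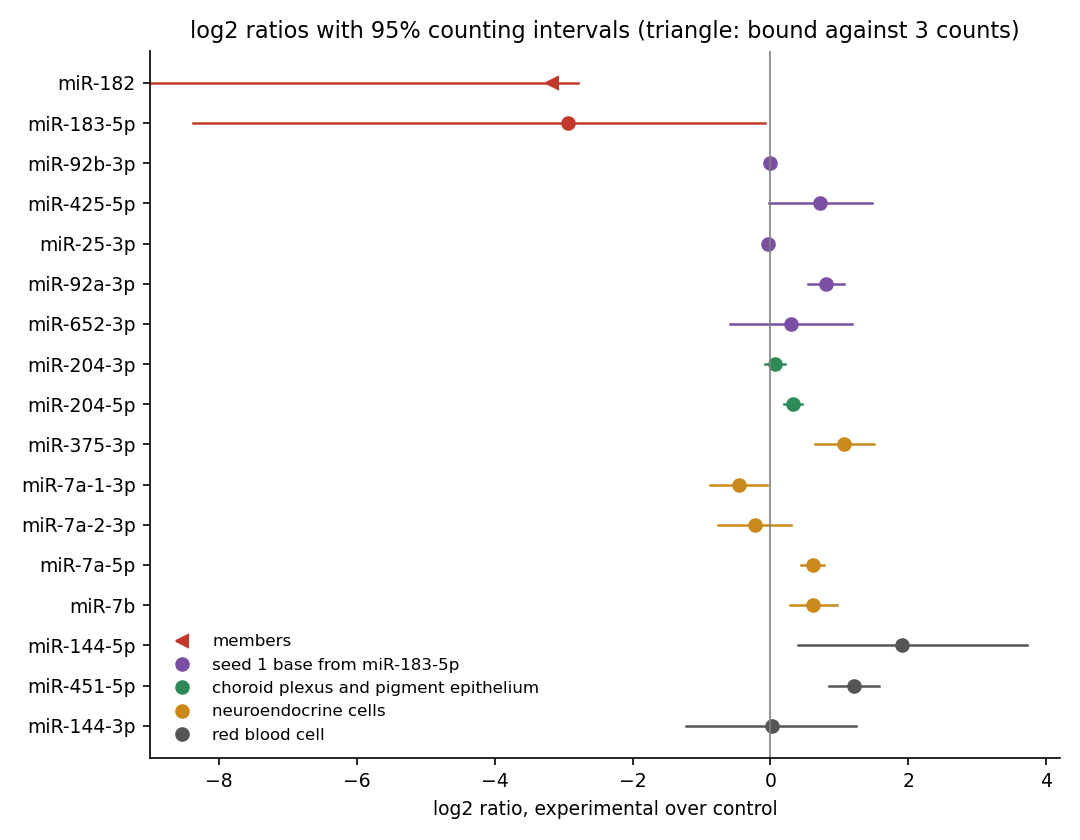
log2 ratios of the experimental over the control group with 95% exact Clopper-Pearson intervals, for the members, the miRNAs with a seed 1 base from that of miR-183-5p, and 3 lists of miRNAs of other cell types. The triangle of miR-182 is a bound against 3 counts, with an interval open to the left, and the 1 count of miR-183-5p is plotted as it is; the members lie at -3.18 and -2.93 (-1.35 for miR-183-5p at the floor of 3 counts), and the other 15 strands lie between -0.46 and 1.92.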

How the data were processed

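Small RNA of 2 pooled hippocampal libraries, 1 per group, was analysed. The authors deposited unscaled read counts per miRNA, as whole numbers, although the file header announces normalized values. Per the study, low-quality, short and single-read sequences had been removed. The aligner and miRBase release are not given in the sources used here, and the submitters' processing notes name the build rn5. Samples were grouped by their titles. The 2 columns of p-values in the table were not used.

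Counts were divided by the sum of the counts of each library. Counts of 0 were set to 3 for the ratios of the members, and all counts under 3 for counting miRNAs past 4-fold. Ratios carry 95% exact Clopper-Pearson intervals and counts 95% exact Poisson intervals. With 1 library per group no test was made. The rule for named miRNAs took the members, the 3 known miRNAs above and below each by control count (ties in table order), known miRNAs with 5 counts or fewer in one library and at least 20 in the other, the 5 lowest log2 ratios, seeds with at most 1 base of difference, and lists of cell type miRNAs (neuron, epithelium, choroid plexus, neuroendocrine, red blood cell). The miRNAs with the fewest reads after SE and those at the control level of a member were added after their values were seen. The members and lists were chosen with earlier results of these data known. Alternatives were other scalings (clean reads of the study, known miRNAs, unscaled, TMM of edgeR, size factors of DESeq2), a pseudocount of 1, minimums of 10 or no counts, known miRNAs only, and a log2 ratio beyond 1. Sequences came from RefSeq (GRCr8) by name, with 297 of 328 known miRNAs matched, both members among them. The calculation was tested on simulated data. Software was Python 3.11.15, numpy 2.4.6, scipy 1.17.1, pandas 2.3.3, matplotlib 3.10.9, R 4.3.3, edgeR 4.0.16 and DESeq2 1.42.0.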

Additional observations from a re-analysis of the deposited data

How the results depend on the processing

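No paired analysis was possible because the groups hold 1 pooled library each. Leaving out a replicate was likewise not run. The log2 ratio of miR-182 over the 6 scalings and a pseudocount of 1 ranged from -4.81 to -3.14. That of miR-183-5p ranged from -3.17 to -1.35, the highest with every count under 3 set to 3, an alternative added after the data were seen. The sum of the members ranged from -5.36 to -3.53. Over the scalings the upper limit of the interval was at most -2.76 for miR-182 and -0.05 for miR-183-5p. TMM and unscaled counts shifted every log2 ratio by -0.15 and -0.24. The 3 miRNAs more than 4-fold lower became 9 with at least 10 counts or no minimum, 1 with known miRNAs only and 6 with a log2 ratio beyond 1, and the 9 that were more than 4-fold higher became 21, 21, 7 and 26 in this order. Depth limits miR-183-5p most, since 9 counts are the larger of its counts.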
